A study of Mus musculus with 4 samples.

Results

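Interferon-activated melanocytic tumour cells are pigment-gene-expressing cells that hold many transcripts of interferon-inducible genes. A droplet barcode entered the melanocytic gate with at least 8000 UMIs (unique molecular identifiers, each standing for 1 captured RNA molecule), a mitochondrial share of 0.5 to 20%, at least 0.3% of its UMIs from Dct, Pmel, Mlana and Tyrp1, and no UMI of the leukocyte gene Ptprc. A gated cell was called activated when Irgm1, Irgm2, Igtp, Iigp1, Tgtp2, Gbp2, Gbp3, Gbp5, Gbp7, Psmb8, Psmb9 and Tap1 together gave at least 500 UPM (UMIs per 1000000 UMIs of the cell). Gated cells under 100 UPM, called low here, served for comparison within the same library. In all, 171 of 6550 gated cells were activated, 264 lay between the limits and 6115 were low, out of 7493 barcodes with at least 8000 UMIs.

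The cells came from 4 tumour libraries of C57Bl6 mice, labelled 6-8 weeks old, made with the 10x Genomics 3-prime v2 chemistry. The labelled groups are Nanocapsule (tumours treated with nanocapsules, 2 libraries) and Control (2 libraries), in a series on nanocapsules that carry enzymes and on T cell immunity to tumours. The labels give neither the tumour line, the enzymes, the dose nor the animals behind a library, so p-values measure only the spread between these 4 libraries, which may be technical. Group names follow the labels alone. Letters in the names of the deposited files could be read as the opposite assignment and were not used. If the labels were swapped, every difference between Nanocapsule and Control given here would change its direction, while the comparison of activated with low cells would not.

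Interferons bind cell-surface receptors that signal through Janus kinases to transcription factors. Type II interferon (interferon gamma, made by T and natural killer cells) acts mainly at gamma-activated sites (GAS) in promoters. Type I interferons act mainly at interferon-stimulated response elements (ISRE). In mice the induced genes include the immunity-related GTPases, the guanylate-binding proteins, the immunoproteasome and the peptide transporter that loads MHC class I, by which tumour cells show antigen to CD8+ T cells.

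The activated cells were melanocytic by their other genes and carried few leukocyte transcripts. The 16 pigment genes outside the gate, among them Tyr and Mitf, summed to 9276, 7820, 8556 and 9005 UPM in activated cells of Nanocapsule 1, Nanocapsule 2, Control 1 and Control 2, against 7613, 7112, 8270 and 7630 UPM in low cells. The 13 T and NK cell markers, Cd3e and Cd8a among them, had 0 UMIs in the activated cells of every library, a count that allows up to 3 in each class. Macrophage markers came to 475 to 638 UPM in activated cells and 492 to 594 in low cells. Nearly all of it was Apoe, which the tumour cells express. C1qc, Adgre1 and Ccr2 were at 0 in activated cells. Cd68 stood at 7.32, 3.06, 4.73 and 11.9 UPM in activated cells of the libraries in the same order, against 4.61, 3.80, 4.84 and 3.54. Fcer1g stood at 6.94, 5.75, 0 and 10.6 UPM, against 7.45, 6.12, 6.03 and 6.17 in low cells. The 39 immune cell markers left without Apoe and the interferon-inducible Bst2 summed to 17.3, 11.5, 4.73 and 26.5 UPM in activated cells, against 16.04, 15.8, 16.3 and 15.4 UPM in low cells. The B and dendritic cell list, which holds Bst2, stood at 547 to 1552 against 84.1 to 110 UPM. Fibroblast and endothelial markers stood at 4.73 to 15.9 against 6.59 to 21.6 UPM, erythroid markers at 0 to 3.86 against 1.82 to 16.6, and neutrophil markers at 0 to 0.186 against 0.243 to 0.453.

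Sequencing depth was similar in both classes. Activated cells had median totals of 59286, 93161, 41318 and 72928 UMIs in Nanocapsule 1, Nanocapsule 2, Control 1 and Control 2, and low cells 61693, 88408, 38666 and 80657. No doublet caller was run. Over all pairs of libraries 21 gated barcodes were shared, 2 of them with an activated cell. Near-empty droplets (at most 100 UMIs), which sample free RNA, held 78.2 and 279 UPM of the 12 rule genes in Nanocapsule 1 and 2, and 21.4 and 36.4 in Control 1 and 2. Low cells held 17.4 and 14.0 in Nanocapsule 1 and 2, and 7.35 and 8.57 UPM in Control 1 and 2. Low cells were chosen for a low level of these genes and the droplets were not, so the levels are not comparable.

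The rule genes themselves are described without a test, since they chose the cells. An activated cell expressed most of them together: the median cell held 10 of the 12 in Nanocapsule 1, 11 in Nanocapsule 2, 9 in Control 1 and 10.5 in Control 2. The strongest gene of a cell gave a median of 29.7%, 26.1%, 34.6% and 26.4% of its rule UMIs. Irgm1, an immunity-related GTPase of the regulatory class, was at 231, 276, 161 and 205 CPM (the UPM of UMIs summed over cells, scaled between sums by TMM) in activated cells, against 5.51, 5.66, 4.04 and 4.500 CPM in low cells. For Gbp2, one of the guanylate-binding GTPases, the activated sums were 218, 295, 205 and 107 CPM, against 0.914, 0.599, 0.223 and 0.177 CPM. Psmb8, a catalytic subunit of the immunoproteasome, was at 144, 186, 109 and 119 CPM, against 1.59, 0.741, 0.215 and 0.0630 CPM. The levels in low cells are capped by the rule, so no comparison between groups is drawn from them.

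Igtp and Tgtp2, also GTPases of this family, reached 164, 198, 91.6 and 194 CPM and 75.8, 98.7, 39.3 and 69.0 CPM in activated cells of the 4 libraries in the same order. In low cells they were at 0.432, 0.379, 0.155 and 0.139 CPM and at 0.152, 0.0788, 0 and 0.0252 CPM. Igtp overlaps the annotated span of Irgm2 on the same strand, and Tgtp2 has a near-identical neighbour in Tgtp1, so the split of UMIs within each pair is uncertain. The cells nearest the limit held 505, 516 and 521 rule UPM inside it and 499, 499 and 498 outside it, and 29 gated cells lay at 400 to 500 against 15 at 500 to 600.

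Promoter windows of these genes hold letters that match interferon-responsive motifs. The windows shown are 70 bases upstream of the start given by RefSeq (GRCm38.p6), chosen because 3 of the rule genes share one arrangement. Capitals mark a GAS (TTCNNNGAA) and, 2 bases downstream of it, an ISRE (GAAA, any 2 bases and GAAA again, or the reverse complement, TTTC, any 2 bases and TTTC). They lie at chr11:58214877-58214946 (Irgm2, plus strand), chr11:58199486-58199555 (Igtp, plus strand) and chr11:49064249-49064318 (Tgtp2, minus strand).
Irgm2: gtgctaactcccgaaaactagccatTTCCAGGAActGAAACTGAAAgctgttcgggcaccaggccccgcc
Igtp: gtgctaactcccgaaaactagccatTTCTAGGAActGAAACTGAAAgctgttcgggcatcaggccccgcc
Tgtp2: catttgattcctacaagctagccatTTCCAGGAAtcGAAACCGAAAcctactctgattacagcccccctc
Tgtp1: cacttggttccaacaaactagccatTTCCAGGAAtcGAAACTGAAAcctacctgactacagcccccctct
Tgtp1, which is no rule gene, lies at chr11:48992290-48992359 on the minus strand. This arrangement, searched on both strands, occurred in 5 of 32851 mouse promoter windows (300 bases each, 0.0152%), those of the 4 genes shown and of Gm12185, a chromosome 11 gene.

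A further 3 rule genes are shown for other arrangements. Irgm1 (chr11:48871421-48871490, minus strand) has overlapping ISREs, Gbp2 (chr3:142620574-142620643, plus strand) an ISRE in reverse orientation, and Psmb8 (chr17:34198067-34198136, plus strand) a GAS.
Irgm1: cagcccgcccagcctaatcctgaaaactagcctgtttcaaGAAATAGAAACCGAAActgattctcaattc
Gbp2: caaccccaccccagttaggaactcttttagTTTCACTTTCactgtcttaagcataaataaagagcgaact
Psmb8: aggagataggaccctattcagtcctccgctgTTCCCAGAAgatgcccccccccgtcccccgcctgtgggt
Of the 11 rule genes with a promoter entry, 8 held an ISRE and 6 a GAS. Among all genes with an entry 3.99% held an ISRE and 9.55% a GAS, and among all windows 3.44% and 8.30%. A match describes the letters only, not binding.

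Activated cells were a larger part of the gated cells in both Nanocapsule libraries than in either Control library. They made up 43 of 1484 gated cells in Nanocapsule 1 (2.90%, 95% exact Clopper-Pearson interval 2.105 to 3.88%) and 113 of 946 in Nanocapsule 2 (11.9%, 9.95 to 14.2%). In Control 1 they were 5 of 3106 (0.161%, 0.0523 to 0.375%) and in Control 2 10 of 1014 (0.986%, 0.474 to 1.81%). The groups did not overlap, and neither did the intervals of the Nanocapsule libraries.

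The mean share was 7.42% ± 6.40 in Nanocapsule and 0.574% ± 0.584 in Control libraries (SD, n = 2 each). The difference of 6.85 percentage points had p = 0.3333 in a two-sided exact permutation test, the smallest p that 2 against 2 libraries allow. Without Nanocapsule 2 the difference was 2.32 points and without Nanocapsule 1 it was 11.4 points, so its size rests on Nanocapsule 2. The intervals cover counting error only. Thinning every cell to 8000 UMIs and asking for 4 rule UMIs gave 3.71% and 12.8% in Nanocapsule 1 and 2 and 0.258% and 1.08% in Control 1 and 2.

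**Figure D1:**
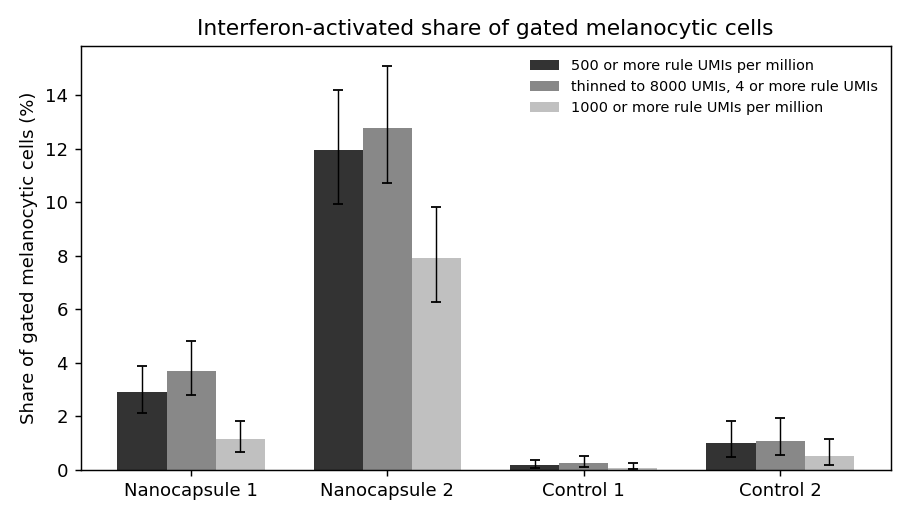
Share of gated melanocytic cells (%) that were activated in each library, by 3 definitions; bars are shares and whiskers are 95% exact Clopper-Pearson intervals of counting error. By the first definition Nanocapsule 1 and 2 stand at 2.90% and 11.9%, above Control 1 and 2 at 0.161% and 0.986%.

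Since the rule chose them for it, the share of rule-gene UMIs in these cells is a description only. Activated cells supplied 59.2% and 86.7% of the gated rule UMIs in Nanocapsule 1 and 2, and 18.9% and 57.8% in Control 1 and 2, while holding 2.85%, 12.7%, 0.169% and 0.937% of all gated UMIs in the same order. They also supplied 11.8% and 41.9% of the MHC class I chain UMIs in the Nanocapsule libraries and 1.56% and 8.49% in the Control libraries. Summed over all gated cells, MHC class I chains stood at 697 and 826 UPM in Nanocapsule 1 and 2, and at 351 and 336 UPM in Control 1 and 2.

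Outside the rule, 15135 genes were tested on UMIs summed per library and class, with the library as a block (edgeR quasi-likelihood test, Benjamini-Hochberg adjusted p under 0.05). Of these, 484 were higher in activated than in low cells, 3.2% of those tested, and 299 were lower, 1.98%, together 5.17%. The 4 activated and 4 low sums did not overlap for 9.65% of the genes tested. The median log2 fold (activated over low) of all genes was -0.03. Counts depended on the Nanocapsule libraries, which hold 156 of the 171 cells: without Nanocapsule 1 they were 293 higher and 112 lower, and without Nanocapsule 2 they were 257 and 119. DESeq2 called 282 higher and 59 lower, of which 266 and 57 were among the edgeR calls.

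The largest rises were other interferon-inducible genes. Gbp4, of the guanylate-binding family, stood at 65.2, 109, 65.4 and 10.2 CPM in activated cells of Nanocapsule 1, Nanocapsule 2, Control 1 and Control 2, against 0.0508, 0, 0 and 0 CPM in low cells. Its counts were 1361 UMIs in all activated and 4 in all low cells. Gbp6 was at 67.8, 113, 48.0 and 49.9 CPM, against 0.140, 0.221, 0.0172 and 0.0756 CPM, a log2 fold of 9.23 ± 0.21 (SE). For both genes every activated sum lay above every low sum.

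Tgtp1, whose promoter is shown above, had 445 UMIs in activated cells and 1 UMI in low cells, a ratio of 10869 per UMI sequenced with a 95% counting interval from 1941 upward, subject to the split with Tgtp2. Gm4951, an immunity-related GTPase, Zbp1, a sensor of Z-form nucleic acid, and Oasl2, an oligoadenylate synthetase-like gene, rose with log2 folds of 10.22 ± 0.38, 9.19 ± 0.21 and 8.16 ± 0.32. Apol9a and Apol9b, apolipoprotein L genes, rose by 9.36 ± 0.41 and 7.62 ± 0.34. Ddx60, a helicase of antiviral signalling, rose by 7.06 ± 0.36, Ifi47, another immunity-related GTPase, by 6.92 ± 0.22, and Mndal, a p200-family gene, by 6.70 ± 0.37. Ifit3, an RNA-binding antiviral gene, rose by 7.97 ± 0.69 (adjusted p = 0.0307), a call lost without Nanocapsule 1 (adjusted p = 0.350) and without Nanocapsule 2 (adjusted p = 0.283).

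Of 11 tested GBP and immunity-related GTPase genes outside the rule, 10 rose, with a median log2 fold of 9.23. The median was the same with Gbp10, at 0 UMIs in low cells, set to its lower bound. Without the filter on low counts 11 of 15 rose (median 7.46). Gbp10 had 277 UMIs in activated cells, at least 2255-fold higher against a floor of 3 counts over the low cells. Gm12185 was at 8.38, 13.9, 0 and 12.8 CPM in activated cells of Nanocapsule 1, Nanocapsule 2, Control 1 and Control 2, against 0.0127, 0, 0.0172 and 0.0504 CPM in low cells (log2 fold 8.63 ± 0.50). It was chosen after its values were seen, for its promoter. Among genes that rose and have a promoter entry, 76 of 374 held an ISRE (20.3%), among those that fell 8 of 229 (3.49%), and among all tested genes 401 of 11162 (3.59%). For GAS the shares were 13.1%, 4.37% and 8.27%.

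MHC class I and its peptide supply were higher in activated cells of every library. Of 8 tested class I chain genes 7 rose (median log2 fold 2.72), and of 11 genes of peptide supply and loading outside the rule 8 rose (median 2.34). B2m, the light chain of every class I molecule, was at 1803, 1691, 1810 and 2054 CPM in activated cells of Nanocapsule 1, Nanocapsule 2, Control 1 and Control 2, against 381, 261, 210 and 194 CPM in low cells. The activated sums were nearly level across libraries, and the low sums were highest in Nanocapsule 1. The log2 fold was 2.85 ± 0.10 (adjusted p = 2.64e-61), and without Control 1 it was 2.77 with an adjusted p of 0.0998.

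H2-K1, a classical class I heavy chain, was at 347, 332, 375 and 199 CPM, against 82.2, 53.5, 57.2 and 31.7 CPM (2.49 ± 0.10, adjusted p = 1.28e-139). H2-D1, the second classical heavy chain, was at 502, 485, 654 and 473 CPM, against 88.1, 62.9, 61.6 and 52.0 CPM (2.98 ± 0.10, adjusted p = 1.27e-199). For both, no activated sum fell within the range of the low sums. H2-T22, a nonclassical chain, rose by 2.58 ± 0.11. Heavy chains of this family are similar in sequence, so their shares of the UMIs are less certain than their sum.

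Nlrc5, the transactivator of class I genes, was at 41.2, 70.3, 34.9 and 35.8 CPM in activated cells, against 2.83, 2.03, 0.541 and 1.07 CPM in low cells (4.71 ± 0.19, adjusted p = 3.44e-124). Tap2, the partner of the rule gene Tap1 in the peptide transporter, was at 57.2, 52.0, 13.1 and 23.01 CPM, against 2.91, 1.70, 1.11 and 0.908 CPM (4.56 ± 0.20). Psme2, a proteasome activator subunit, rose by 2.26 ± 0.10. The groups of sums did not overlap for any of these 3 genes. The general chaperones of the same list, Calr, Canx and Pdia3, had log2 folds of -0.15, -0.07 and -0.13 and did not pass.

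**Figure D2:**
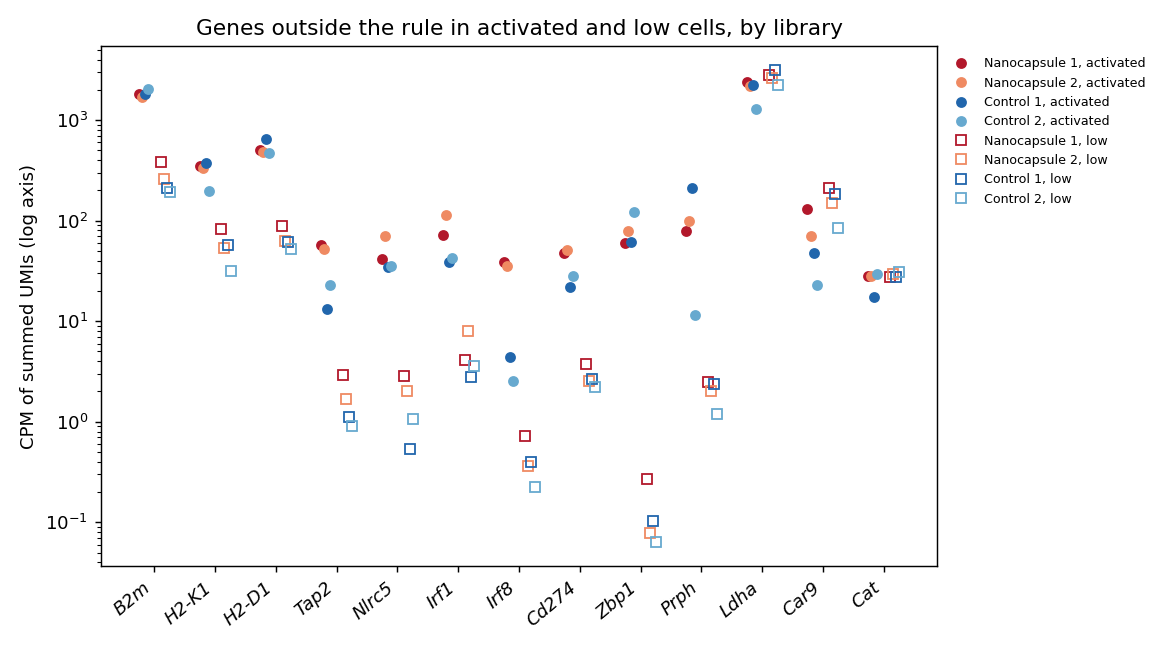
CPM (log axis) of genes outside the rule in activated (filled circles) and low cells (open squares) of each library, 1 point per library and class. B2m lies at 1691 to 2054 CPM in activated and 194 to 381 CPM in low cells, while Cat lies at 17.4 to 29.4 and 27.5 to 30.7 CPM.

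B2m and Irf1 also have motifs in their windows, shown because both genes rose in all 4 libraries: an ISRE in B2m (chr2:122147518-122147587, plus strand) and a GAS in Irf1 (chr11:53769893-53769962, plus strand).
B2m: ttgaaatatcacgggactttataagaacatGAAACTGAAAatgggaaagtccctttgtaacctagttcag
Irf1: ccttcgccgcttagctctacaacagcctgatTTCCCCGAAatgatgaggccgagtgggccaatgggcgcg

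MHC class II genes were detected in part of the activated cells. H2-Aa, the alpha chain of I-A, had a UMI in 74 of 171 activated cells (43.3%) and in 34 of 6115 low cells (0.556%). By library the share of activated cells was 32.6% in Nanocapsule 1, 51.3% in Nanocapsule 2, 0% in Control 1 and 20% in Control 2, where 0 of 5 and 2 of 10 cells say little. Depth was similar within a library but was not matched between the pooled classes. With cells thinned to 8000 UMIs the H2-Aa shares were 16.96% of activated cells, 0.229% of low cells and 62.7% of Ptprc-positive cells.

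Of 9 class II genes that passed the filter on low counts 6 rose (median log2 fold 5.51), and without the filter 5 of 12 rose (median 3.11). Without Nanocapsule 1, 4 of 8 rose. A gene can pass that filter through activated cells alone, here and in the other lists. H2-Eb1, a class II beta chain, was at 17.5, 38.6, 0 and 3.83 CPM in activated cells, against 0.241, 0.126, 0.386 and 0.0882 CPM in low cells (6.49 ± 0.36, adjusted p = 4.95e-53). H2-DMa and H2-DMb1, chains of the peptide-exchange factor, rose by 3.25 ± 0.25 and 2.94 ± 0.22 with no overlap between the sums. Ciita, the class II transactivator, was at 5.72, 4.67, 0 and 0 CPM, against 0.0378 to 0.0788 CPM (5.84 ± 0.51), with all 65 activated UMIs in the Nanocapsule libraries. H2-Aa itself had a log2 fold of 6.54 ± 1.21 and Cd74, the invariant chain, of 5.51 ± 0.72, and neither passed (adjusted p = 0.147 and 0.0753). Free RNA in near-empty droplets held 206 and 439 class II UPM in Nanocapsule 1 and 2 and 164 and 290 in Control 1 and 2, against 247, 364, 104 and 98.2 UPM in activated cells. Low cells of the same libraries held 80.5 to 102 UPM. H2-Aa and H2-Ab1 had 112 and 79 UMIs among the 350090321 UMIs of all low cells, a small part of that sum. Other members of the list carry most of it, so the list sums do not stand for these chains. The part of free RNA in the list sums was not tested.

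Of 19 genes of interferon receptors and signalling 12 rose and none fell (median 0.64). Irf1, an interferon-induced transcription factor, was at 71.3, 113, 39.3 and 42.2 CPM in activated cells of Nanocapsule 1, Nanocapsule 2, Control 1 and Control 2, against 4.10, 8.06, 2.77 and 3.55 CPM in low cells (3.87 ± 0.14). Its sums did not overlap between the classes. Irf8, a factor better known from myeloid cells, rose by 5.74 ± 0.30. Among the receptor chains, Ifngr1, Ifngr2 and Ifnar1 had log2 folds of -0.27, -0.14 and 0.14 and did not pass, while Ifnar2 rose by 0.36 (adjusted p = 0.0138). Socs1, a feedback inhibitor of Janus kinases, rose by 3.38 ± 0.29.

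Genes best known from the type I response were also higher: 23 of 31 rose (median log2 fold 4.32), and all 31 had a positive fold. Parp14, an ADP-ribosyltransferase, was at 43.4, 44.8, 21.8 and 134 CPM in activated cells, against 1.49, 1.40, 1.16 and 1.55 CPM in low cells (5.32 ± 0.19, adjusted p = 1.99e-136). Ifi35 rose by 2.89 ± 0.13. The 10 activated cells of Control 2 stood apart on this list. Its sum was 2021 and 1802 UPM in Nanocapsule 1 and 2, and 1669 and 6663 in Control 1 and 2, against 320 to 362 in low cells. The median cell held 1163, 1597, 1391 and 4894 UPM in the same order, and the richest cell of Control 2 gave 27.4% of its sum. Isg15, a ubiquitin-like protein, was at 151, 135, 74.1 and 937 CPM, against 5.16 to 7.69 CPM in low cells, and with a log2 fold of 5.27 ± 0.76 it did not pass (adjusted p = 0.0928). Bst2 likewise had 539, 658, 768 and 1494 CPM, against 87.2 to 113 CPM (3.05 ± 0.40, adjusted p = 0.0773).

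The p200 and Sp family, nuclear and cytosolic nucleic-acid sensors and their relatives, had 7 of 8 tested genes higher (median 5.60), among them Ifi203 (6.46 ± 0.31) and Sp110 (5.94 ± 0.37). Without the filter on low counts 8 of 12 rose (median 5.05). Without Nanocapsule 2, 4 of the 5 genes then tested passed. Aim2, an inflammasome sensor of the family, had a log2 fold of -2.20 and did not pass.

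Genes of programmed cell death were higher in 13 of 19 cases (median 1.00), by 6 to 14 when 1 library was left out. Mlkl, the executor of necroptosis, was at 61.4, 57.3, 48.0 and 74.1 CPM in activated cells, against 21.7, 21.6, 18.4 and 16.5 CPM in low cells (1.58 ± 0.12, adjusted p = 1.39e-38). Zbp1, which can engage necroptosis upstream of Mlkl, was at 59.4, 79.5, 61.1 and 121 CPM, against 0.267, 0.0788, 0.103 and 0.0630 CPM. Xaf1, an antagonist of the inhibitor XIAP, rose by 4.08 ± 0.18, with an adjusted p of 0.0714 without Control 1. Bax and Mcl1, of the Bcl-2 family, had log2 folds of -0.14 and 0.04 and did not pass.

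Inhibitory ligands rose in part. Of 11 checkpoint and immune-inhibitor genes 6 were higher (median 0.82). Cd274, the ligand PD-L1, was at 48.0, 51.2, 21.8 and 28.1 CPM in activated cells, against 3.75, 2.52, 2.64 and 2.23 CPM in low cells, with no overlap (3.89 ± 0.19, adjusted p = 2.75e-94). A Cd274 UMI was found in 67.3% of activated and 12.6% of low cells. Serpinb9, a granzyme B inhibitor, rose by 2.73 ± 0.31, and Cd47, the inhibitory ligand of phagocytes, by 0.62 ± 0.10, though not under DESeq2 (adjusted p = 0.460).

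Among 9 tested chemokines and cytokines 4 rose and 1 was called lower (median 1.36). Without Nanocapsule 1 or without Nanocapsule 2, 2 rose, and without the filter on low counts 4 of 15 rose (median 0.39). None was called lower without the filter or with any 1 of the 4 libraries left out. Csf1, the macrophage growth factor, rose by 2.91 ± 0.21. Cxcl10, a chemoattractant for CXCR3+ T cells, was at 189, 210, 21.8 and 254 CPM in activated cells, against 15.1, 19.2, 12.1 and 11.5 CPM in low cells (3.64 ± 0.44). Every activated sum exceeded every low one, but it did not pass (adjusted p = 0.0665). The richest activated cell gave 29.8% and 20.1% of the Cxcl10 UMIs in Nanocapsule 1 and 2. In Control 1 and 2 it gave 80% of 5 UMIs and 78.9% of 199, so these sums rest largely on 1 cell each. A Cxcl10 UMI was found in 58.1%, 75.2%, 40% and 70% of activated cells of the 4 libraries in the same order. The shares of low cells were 25.9%, 36.8%, 18.4% and 28.5%. Cxcl9, with 21 UMIs in activated and 5 in low cells, came from 4 activated cells. Ccl5, a T cell and monocyte attractant, was at 48.0, 7.19, 0 and 6.39 CPM, against 3.49, 1.17, 4.22 and 2.05 CPM, and so was higher in 3 of 4 libraries. Its call was lost without cells holding an immune marker UMI, Apoe and Bst2 not counted (log2 fold 2.75, adjusted p = 0.792). The call for Ccl2, at 0 UMIs in activated and 239 in low cells, was lost under every alternative run. Of 10 complement genes 4 rose (median 0.70), with C4b at 3.21 ± 0.27, C2 at 0.98 ± 0.10 and Serping1 at 4.81 ± 0.58. Of 4 Ly6 and Ifitm surface genes only Ifitm2 passed, lower by a log2 fold of -0.33. It lost its call under 8 of 13 alternatives, among them DESeq2 (adjusted p = 0.217) and either Nanocapsule library left out (adjusted p = 0.166 and 0.0978). Ifitm3 had 3.33 ± 0.44 without passing (adjusted p = 0.0782).

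Melanocytic identity was close to that of low cells. Of 16 pigment genes outside the rule, Gpnmb, a melanosomal glycoprotein (0.43 ± 0.09), and Oca2, a melanosomal ion transporter (0.31 ± 0.10), passed, and the median log2 fold was 0.04. Gpnmb did not pass without Control 2 (adjusted p = 0.120), nor Oca2 without either Nanocapsule library (adjusted p = 0.963 and 0.429). Tyr, Mitf and Sox10 had log2 folds of -0.22, 0.13 and 0.03, each with an SE of 0.09, and did not pass.

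Of 11 tested genes of neural crest and undifferentiated melanoma, Axl and Prph rose and Nes fell. Prph, which encodes the neuronal intermediate filament peripherin, was at 78.9, 99.3, 209 and 11.5 CPM in activated cells, against 2.48, 2.02, 2.35 and 1.18 CPM in low cells (5.35 ± 0.48, adjusted p = 0.0146). It had a UMI in 66.1% of activated and 7.83% of low cells. By library the share of activated cells was 65.1% in Nanocapsule 1, 69.0% in Nanocapsule 2, 80% in Control 1 and 30% in Control 2. In thinned cells the shares were 32.7% of activated and 1.62% of low cells. Of 308 thinned Ptprc-positive cells 0 held a Prph UMI, a count that allows up to 3. Axl, a receptor tyrosine kinase, was at 7.24, 10.8, 8.72 and 8.95 CPM, against 1.38, 1.07, 0.936 and 0.845 CPM (3.03 ± 0.34). Both genes rose under every alternative run, whereas Nes, a neural intermediate filament gene (-0.53 ± 0.17, adjusted p = 0.0448), lost its call under 9 of 13.

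Of 16 mitosis genes only Cdk1, the mitotic kinase, passed (-0.43 ± 0.10), with a median of -0.08. Mki67, a proliferation marker, had -0.07 ± 0.10. Of 16 DNA replication genes Rrm2, Tk1 and Pcna fell by 0.38, 0.37 and 0.35 on the log2 scale (median -0.22). None of these 3 passed without Control 2. No p53 target passed (11 tested, median -0.12, with 0 higher and 0 lower), nor any of 18 oxidative phosphorylation genes (median -0.08). Cdkn1a and Ccng1, p53 targets, had -0.14 ± 0.66 and -0.07 ± 0.10, and Cox4i1 and Ndufa4, respiratory chain subunits, -0.14 ± 0.09 and -0.20 ± 0.09.

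**Figure D3:**
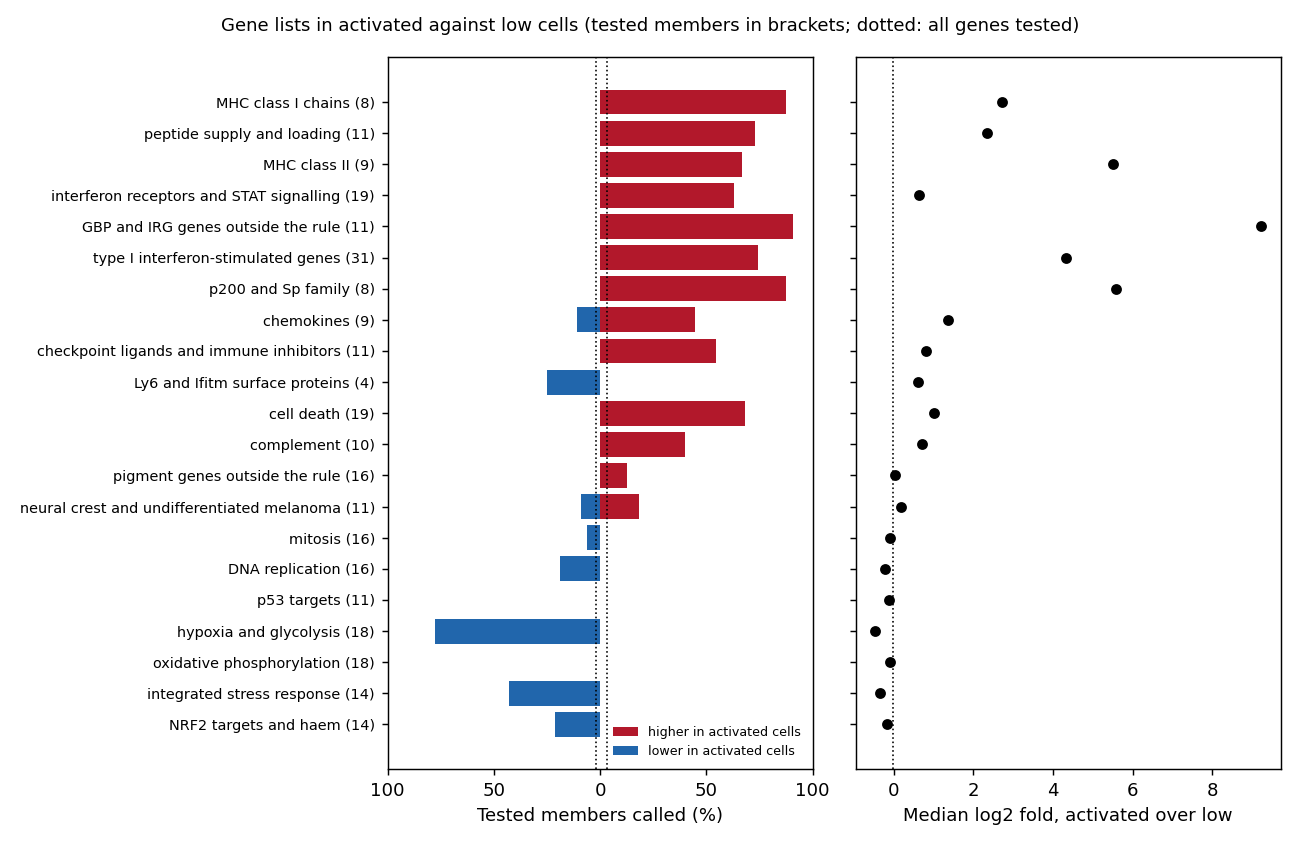
Left, the share of tested members (%) of each list that were higher or lower in activated than in low cells; right, the median log2 fold of the list; tested members are in brackets and dotted lines give all 15135 genes tested. MHC class I chains have 7 of 8 members higher, while hypoxia and glycolysis has 14 of 18 members lower.

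Among genes with at least 20 CPM in the higher class, the largest fall was that of Car9. Far less abundant genes had larger negative folds, such as Hbb-bs (-4.86), a globin, and Lyz2 (-3.48), a macrophage lysozyme. Low cells held 866 Hbb-bs UMIs in Nanocapsule 1 and 2, 97 and 70 in Nanocapsule 2, Control 1 and Control 2. Its call was lost without Nanocapsule 1 (adjusted p = 0.837) and under DESeq2 (adjusted p = 0.594). Lyz2 had 1 UMI in activated cells, and its call was lost without Nanocapsule 1 or Nanocapsule 2 (adjusted p = 0.119 and 0.378) and under DESeq2 (adjusted p = 0.844). Of 18 hypoxia and glycolysis genes 14 fell and none rose (median -0.47, against -0.03 for all genes), with 8 to 14 when 1 library was left out and 7 under DESeq2. Without cells holding an immune marker UMI (Apoe and Bst2 not counted) 5 fell and the median was -0.17. Car9, the hypoxia-induced carbonic anhydrase, was at 131, 70.2, 48.0 and 23.01 CPM in activated cells of Nanocapsule 1, Nanocapsule 2, Control 1 and Control 2, against 212, 151, 186 and 84.2 CPM in low cells (-1.10 ± 0.11, adjusted p = 2.5e-22). Within each library the activated sum was the lower, though the ranges overlapped across libraries. The call was lost without the largest cells (above the 95th percentile), where the log2 fold was -1.18 (adjusted p = 0.447). Adm, adrenomedullin, was at 26.3, 21.9, 13.1 and 3.83 CPM, against 45.5, 42.8, 36.9 and 22.8 CPM (-0.99 ± 0.13). Bnip3, a mitophagy receptor, fell by 0.58 on the log2 scale and Ldha, which makes lactate from pyruvate, by 0.45 (adjusted p = 6.51e-05, and 0.0723 without Control 2). Bnip3 did not pass without the largest cells (adjusted p = 0.628). Neither Bnip3 nor Ldha passed without cells holding an immune marker UMI (adjusted p = 0.233 and 0.793).

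Other falls included the histone genes Hist1h1d (-0.87 ± 0.13) and Hist1h2ab (-0.89 ± 0.17), and Selenbp1, which encodes a selenium-binding protein (-0.79 ± 0.11). Without cells holding an immune marker UMI the log2 folds of Hist1h1d and Hist1h2ab were -0.37 and -0.027, and neither passed. Hist1h2ab did not pass in thinned cells either (-0.34, adjusted p = 0.859). Selenbp1 did not pass without the filter on low counts (adjusted p = 0.137) or without the largest cells (adjusted p = 0.323). Ctnnbip1, an inhibitor of beta-catenin, fell by 0.78 on the log2 scale, Cmtm5 by 0.77 and Cntfr, a subunit of the ciliary neurotrophic factor receptor, by 0.77. Ctnnbip1 and Cntfr did not pass without Nanocapsule 1, nor Cmtm5 without Nanocapsule 2.

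Of 14 genes of the integrated stress response 6 fell (median -0.35), by 1 to 8 when 1 library was left out. Ddit4, an inhibitor of mTORC1, was at 93.7, 69.8, 43.6 and 33.2 CPM, against 123, 127, 119 and 67.8 CPM (-0.75 ± 0.11, adjusted p = 2.27e-10). Fgf21, a stress-induced hormone, was at 0.381, 0.0933, 0 and 0 CPM in activated cells, against 2.88, 5.11, 0.627 and 3.84 CPM in low cells, a log2 fold of -4.96. The call was lost without Nanocapsule 2 (adjusted p = 0.0889) and under DESeq2 (adjusted p = 0.0626). Slc7a11, the cystine transporter, passed with -0.62, but not under DESeq2 (adjusted p = 0.379), without Nanocapsule 1 (0.515) or without Nanocapsule 2 (0.485), and its fold was 0.18 in thinned cells. Of 14 NRF2 and haem genes Fth1 and Ftl1, the ferritin chains, and Gclc, of glutathione synthesis, passed with log2 folds of -0.52, -0.33 and -0.37 (median of the list -0.18). Gclc lost its call under 9 of 13 alternatives, Ftl1 without Nanocapsule 1, Nanocapsule 2 or Control 2 (adjusted p = 0.252, 0.147 and 0.0739) and Fth1 under DESeq2 (adjusted p = 0.0516). Hmox1, haem oxygenase, had -0.89 ± 0.23 (adjusted p = 0.0753) and Cat, catalase, -0.06 ± 0.13, and neither passed.

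**Figure D4:**
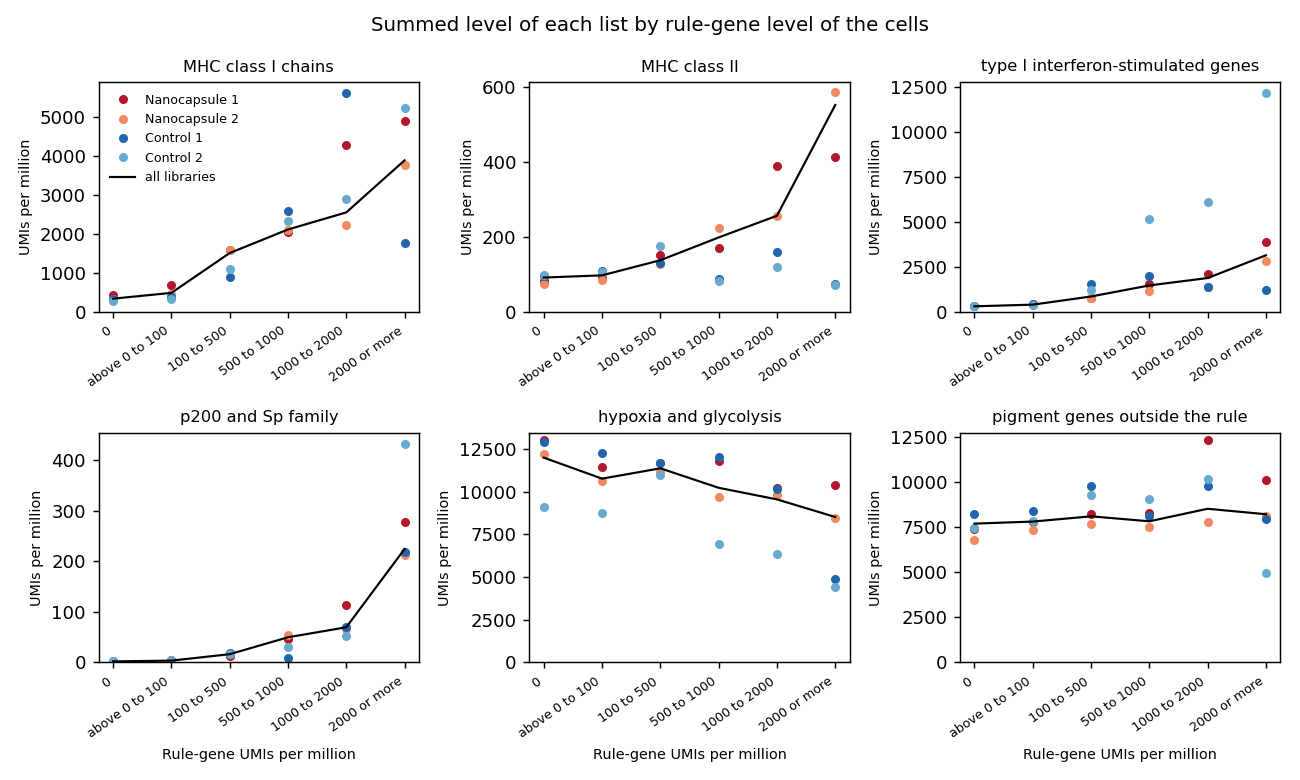
UPM of 6 lists in gated cells grouped by their rule-gene level; points are libraries, the line pools all cells. Pooled MHC class I chains stand at 333 UPM at 0 rule UMIs and 3883 at 2000 or more, and hypoxia and glycolysis at 11988 and 8511.

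Other interferon-inducible lists were also higher in cells between the limits. Cells grouped by rule-gene level, at 0, above 0 to 100, 100 to 500, 500 to 1000, 1000 to 2000 and 2000 or more UPM, held 333, 481, 1504, 2108, 2547 and 3883 MHC class I UPM. The p200 and Sp family went through 1.74, 3.29, 16.03, 49.5, 69.4 and 224 UPM in the same order. Hypoxia and glycolysis genes stood at 11988, 10757, 11362, 10221, 9542 and 8511 UPM, and pigment genes outside the rule at 7708, 7821, 8113, 7837, 8533 and 8230. The higher groups come mostly from Nanocapsule 2, so these pooled values mix level and library, and no test was made.

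Within activated cells, few genes differed between Nanocapsule and Control, where 156 cells stand against 15. Of 9777 genes tested, 6 were higher in Nanocapsule (0.0614%) and 1 was lower (0.0102%), together 0.0716%. Irf8 was at 39.3 and 35.3 CPM in activated cells of Nanocapsule 1 and 2, against 4.36 and 2.56 CPM in Control 1 and 2 (log2 fold 3.58 ± 0.53, Nanocapsule over Control, adjusted p = 0.0167), and did not pass without Control 2 or under DESeq2 (adjusted p = 0.0962 and 0.175). In the Control libraries its counts were 1 and 2 UMIs. Cck, the peptide hormone cholecystokinin, was at 113 and 131 CPM against 4.36 and 0 CPM (6.86 ± 0.58, adjusted p = 6.91e-05), from 16 and 18 Nanocapsule cells, of which the richest gave 35.5% and 55.6%. In low cells Cck was at 180 and 165 CPM in Nanocapsule 1 and 2, and 140 and 28.1 CPM in Control 1 and 2.

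Ier3, an early-response survival gene, Gsta4, a glutathione transferase, Hist1h1e, a linker histone, and mt-Atp8, a mitochondrial ATP synthase subunit, were higher by 2.15 ± 0.30, 1.70 ± 0.27, 1.58 ± 0.24 and 1.01 ± 0.17. Of these, mt-Atp8 was also at 1367 and 1011 CPM in Nanocapsule low cells against 710 and 642 CPM in Control low cells. The transcript 4930599N23Rik was lower by 3.56 on the log2 scale. Gsta4 and 4930599N23Rik did not pass without Control 2, nor mt-Atp8 without Nanocapsule 1. With the limit set at 1000 UPM 1 gene passed in all. The richest cell held 69.5% of the 59 UMIs of 4930599N23Rik in Control 2.

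In low cells, 0 of 15893 genes passed in edgeR (0.0%), where 564 were higher and 530 lower at an unadjusted p under 0.05, whereas DESeq2 called 31 higher and 13 lower. With 1 library left out 2 to 298 genes passed, the most without Control 1. Hmox1 came nearest: in low cells it was at 139 and 171 CPM in Nanocapsule 1 and 2, against 63.3 and 59.1 CPM in Control 1 and 2 (1.34 ± 0.11, adjusted p = 0.214). Ifi47 was at 1.55 and 1.31 CPM against 0.258 and 0.227 CPM (2.55 ± 0.25, adjusted p = 0.259). The low class was not the same mix in both groups. Cells with 0 rule UMIs were 44.5% and 35.8% of gated cells in Nanocapsule 1 and 2, against 75.5% and 59.0% in Control 1 and 2. How far low-cell levels of interferon-inducible genes follow this mix was not tested. Vgll3, a transcription cofactor, Lcp1, an actin-bundling protein, and Slc35f1, a solute carrier family member, followed with 0.72 ± 0.08, 0.98 ± 0.11 and 0.55 ± 0.07. In each of these 5 genes both Nanocapsule sums lay above both Control sums. They were named for the smallest p of this fit, so the separation follows from that choice and is no further result.

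The effect of activation differed between the groups for 125 of 15135 genes (0.826%) in a test of the difference itself, 53 with a larger log2 fold in Nanocapsule and 72 with a smaller one. DESeq2 gave 8, and leaving out Nanocapsule 1, Nanocapsule 2 or Control 1 gave 12, 7 and 328. B2m was among them (difference -0.79): its activated sums were alike, while its low sums were 381 and 261 CPM in Nanocapsule, against 210 and 194 CPM in Control libraries. Fewer of the gated cells had 0 rule UMIs in Nanocapsule than in Control libraries, and the part of this in the low B2m sums was not tested. H2-Ab1, a class II beta chain, was at 18.3 and 31.6 CPM in Nanocapsule activated cells, against 4.36 and 0 CPM in Control activated cells (difference 5.43, adjusted p = 0.000516), the Control value resting on 1 UMI in 15 cells. It did not pass under DESeq2 (adjusted p = 0.459) or without Nanocapsule 2 (adjusted p = 1).

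**Figure D5:**
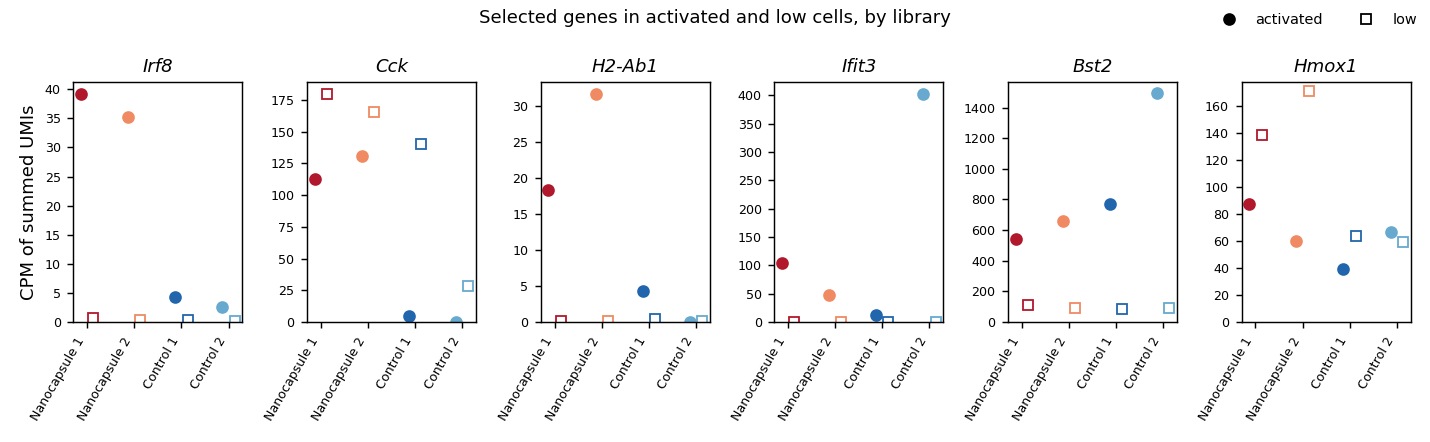
CPM of 6 genes in activated (filled circles) and low cells (open squares) of each library, 1 point per library and class. Irf8 in activated cells stands at 39.3 and 35.3 CPM in Nanocapsule against 4.36 and 2.56 CPM in Control libraries, and Ifit3 is highest in Control 2 at 403 CPM.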

How the data were processed

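The 2 Nanocapsule and 2 Control single-cell libraries were used as grouped by GEO's labels. The authors deposited raw UMI counts per gene and barcode. Cell Ranger 2.1.1 and the mouse build mm10 are given per the submitters' processing notes, while the matrix header names Cell Ranger 4, and which of them made the deposited files is unsure. Libraries held 98943390 to 140491491 UMIs.

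Cells were chosen by total, mitochondrial, pigment, Ptprc and rule-gene counts, and counts were summed per library and class. The cell rule and all gene lists were chosen with earlier results of these data known. edgeR 4.0.16 in R 4.3.3 (TMM, filter on low counts, robust quasi-likelihood test, Benjamini-Hochberg adjusted p under 0.05) tested activated against low cells with library as a block, Nanocapsule against Control within each class, and the difference between these effects. The code was tested on simulated data. DESeq2 1.42.0, other size factors, no filter, stricter limits, thinned cells and left-out libraries were alternatives. Shares were compared by an exact permutation test, whose smallest p was 0.3333. Intervals and floors cover counting error only. Python 3.11.15 and scipy 1.17.1 were used.

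Named genes were the 12 largest rises and 8 largest falls with at least 20 CPM in the higher class and 1 direction in all 4 libraries, 3 members of each list with the smallest p (2 most abundant if none passed), those of the group comparisons by a like rule, and a set of genes always named. Other members are named to describe their list and were chosen after their values were seen. Some genes are not reported here.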

Additional observations from a re-analysis of the deposited data

Results flagged for a closer look

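The following genes were singled out because their activated-over-low log2 fold differed between Nanocapsule and Control libraries in edgeR's test of the difference itself (Benjamini-Hochberg adjusted p under 0.05), with the difference given as Nanocapsule minus Control. The fold was larger in Nanocapsule for Mmd (11.71), H2-Ab1 (5.43), Cck (5.27), Kcnj13 (4.64), Tcf7 (4.13), Ccl5 (2.37), Selenbp1 (1.31), Tk1 (0.81) and Rrm2 (0.71). It was smaller in Nanocapsule for Ccl4 (-11.99), Atp12a (-8.50), Tmem45b (-6.67), Lmo2 (-6.59), Rhov (-6.16), Ifi47 (-1.74), Xaf1 (-1.31), Hmox1 (-1.14), Bst2 (-1.08) and B2m (-0.79). Under DESeq2 the difference did not pass for Mmd, H2-Ab1, Cck, Kcnj13 or Tcf7 (adjusted p = 0.9999, 0.459, 0.252, 0.490 and 0.9999). The same held for Ccl4, Tmem45b, Lmo2 and Rhov (adjusted p = 0.9999, 0.571, 0.9999 and 0.453). With the limit at 1000 UPM Mmd, Cck and Lmo2 did not pass in edgeR (adjusted p = 0.487, 0.293 and 0.0543). The Control side of every difference rests on 15 activated cells. For Ccl4, Atp12a, Tmem45b, Lmo2 and Rhov it rests on 24, 10, 5, 6 and 7 UMIs of Control 2 and 0 in Control 1. Each gene had its UMIs in 1 cell, at 284, 118, 59.1, 71.0 and 46.7 UPM. For Ccl4, Atp12a, Tmem45b and Lmo2 the UMIs and UPM give the same cell total, so the same cell most likely held them. Rhov came from another cell. The richest cell for 4930599N23Rik in Control 2, at 485 UPM, has the same total as the cell with Ccl4.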

How the results depend on the processing

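The difference in the share of activated cells kept its direction under every alternative run, at 2.32 to 11.4 percentage points when 1 library was left out. Genes higher in activated cells numbered 257 to 567 when 1 library was left out, and genes lower 112 to 307. DESeq2 gave 282 and 59, thinning to 8000 UMIs 180 and 69, and leaving out cells with an immune marker UMI (Apoe and Bst2 not counted, chosen after seeing the data) 270 and 75, while a limit of 1000 UPM gave 196 lower. Between Nanocapsule and Control activated cells 151 genes passed without the filter, 1 at 1000 UPM and 34 to 306 when 1 library was left out. In low cells the counts were 63 without the filter, 44 by DESeq2 and 2 to 298 when 1 library was left out. For the difference between effects they were 8 by DESeq2, 56 at 1000 UPM and 7 to 328 when 1 library was left out. The causes were not tested.

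The replicate block gave 96 calls in activated cells, against 7 without it, and 216 in low cells, against 0. The labels give no shared origin for same-numbered libraries, and 2 pairs cannot settle a pairing. Their deviations correlated at -0.05 in activated and 0.34 in low cells.

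When 1 library was left out, the difference between effects ran from -9.41 to 2.90 for Atp12a, -15.35 to 2.07 for Ccl4, -11.65 to 5.32 for Lmo2, -13.17 to 5.56 for Rhov and -10.63 to 3.15 for Tmem45b, and each positive value was the one without Control 2. The log2 fold of activated over low cells then ran from -0.14 to 0.038 for Ccng1, -0.55 to 0.094 for Cdkn1a and -0.41 to 0.90 for Pdgfrb. It also turned round for Ccng1 (0.21 thinned, 0.11 against low cells with 0 rule UMIs), Cdkn1a (0.058 without Control 1), Pdgfrb (-0.13 at 1000 UPM), Pecam1 (-0.62 without cells with an immune marker UMI) and Slc7a11 (0.18 thinned). Leaving out cells with any immune marker UMI, Apoe and Bst2 included, left 0 activated cells and was not fitted. The Control libraries hold only 5 and 10 activated cells.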
